A study of Homo sapiens with 12 samples.

Results

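KOPN-8 cells edited at SETD2 were compared with KOPN-8 cells that carry an empty vector. KOPN-8 is a human B-lineage acute lymphoblastic leukaemia line with a KMT2A fusion. The 6 KOPN-8 libraries were those labelled EV-A replicates 1 to 3 (the controls, labelled SETD2 WT) and BA replicates 1 to 3 (the edited libraries, labelled SETD2 heterozygous KO), out of 12 libraries of the series. The other 6 came from the 697 line, another B-lineage leukaemia, with its own empty-vector control and its own edited clone. Both KOPN-8 groups were grown in RPMI1640 medium with serum and no treatment is labelled. The edited libraries come from 1 clone, the labels do not say whether the control is a clone, and no library of the unmodified line was used. The edit and anything else that sets this clone apart cannot be told apart, and a difference may have arisen on either side. Replicates are labelled biological, without word of separate cultures, so the p-values measure only the spread between these libraries, which may be technical.

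SETD2 is the enzyme that writes H3K36me3, a trimethyl mark on histone H3, along the bodies of transcribed genes, a mark read by proteins of splicing, mismatch repair and DNA methylation. Loss of SETD2 function recurs in acute leukaemias with a KMT2A rearrangement. In those leukaemias the KMT2A fusion protein binds the start of genes such as the HOXA cluster and MEIS1 and keeps them transcribed. Where such a leukaemia is of the B lineage, its cells are arrested early, near the pro-B to pre-B step.

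Each library's reads were counted per gene, and levels are given in CPM, the count scaled to a fixed library total after TMM scaling. KOPN-8 libraries held 13208436 to 18278662 counts. A count of 0 in 1 of them allows up to 3 counts, or 0.159 to 0.223 CPM. In a bulk library fewer cells of a type and less RNA per cell cannot be told apart. SETD2 itself had 159, 171 and 177 CPM across the controls against 161, 151 and 162 CPM across the edited libraries. The groups overlapped, and the log2 fold change of -0.10 (SE 0.0689) was not called (edgeR quasi-likelihood, Benjamini-Hochberg adjusted p = 0.309). A transcript with a frameshift can still be counted, so these values do not check the genotype label. The heavy-chain segment IGHV6-1, chosen after its values were seen, stood at 421 ± 14.2 CPM across the controls against 419 ± 23 CPM across the edited libraries, and at 0.0971 and 0 CPM in 697 control and edited libraries, so that both KOPN-8 groups shared a transcribed segment that 697 lacked. Summed levels of 10 B-lineage markers were 3172 to 3353 CPM in the controls and 3614 to 3663 CPM in the edited libraries. Of these markers 5 were called higher and 2 lower. Means were lower in the edited libraries for VPREB1 (597 against 498 CPM), IGLL1 (502 against 409 CPM) and DNTT (2.02 against 0.402 CPM). Of 13 T and NK cell markers CD3D, CD8A, CD8B and NCAM1 were at 0 in all 6 libraries, and the sums were 97.1 to 102 against 88.8 to 100.1 CPM. Of 12 myeloid markers 5 were at 0 (ELANE, FCGR3A, S100A8, S100A9 and FCN1), with sums of 47.9 to 49.2 against 38.6 to 47.1 CPM. CD33 made up most of these sums and went from 46.2 ± 0.393 to 37.8 ± 3.94 CPM (SD, n = 3). LYZ moved the other way, from 0.522 ± 0.254 to 2.97 ± 0.358 CPM (log2 fold change 2.48, SE 0.395, adjusted p = 2.88e-05, edgeR). Of the 4 myeloid markers tested, LYZ was called higher and CD33 lower. Of 11 erythroid and platelet markers 9 were at 0, the globins among them. Of 9 stromal and endothelial markers COL1A2, COL3A1, DCN, LUM and CDH5 were at 0, and the sum was 24.02 to 29.01 CPM in the controls and 8.48 to 8.74 CPM in the edited libraries. That fall lay mostly in ACTA2, smooth muscle actin, which went from 18.6 ± 2.3 to 6.3 ± 1.11 CPM (SD, n = 3). All 10 B-lineage markers were detected, CD79A among them, and the part of the stromal genes in other results was not tested.

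The edited clone and its control differed at a large share of genes. Of 15218 genes tested, 4370 (28.7%) were called at an adjusted p under 0.05, 1751 higher (11.5%) and 2619 lower (17.2%) in the edited libraries. A called gene is one whose edgeR quasi-likelihood p, after Benjamini-Hochberg adjustment across the whole table, passed that threshold, and rose and fell are used only of called genes. All of these counts refer to edited minus control. The first principal component of the 6 libraries held 82.2% of their variance and separated the groups. Chromosome 8 and the distal part of 13q were lower as blocks. On chromosome 8, 303 of 517 genes fell and 25 rose (median log2 fold change -0.52), and on distal 13q, from PCDH9 to the end, 68 of 99 fell and 4 rose (median -0.56). The genes on the other chromosomes are described next, and members from those 2 blocks are marked where they are named.

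Outside chromosome 8 and distal 13q, 3914 of 14291 genes (27.4%) were called, 1707 higher (11.9%) and 2207 lower (15.4%). The groups did not overlap in 1670 of these rises and 2162 of these falls, so lack of overlap, where it is stated below, adds little to a call. Large changes leaned to lower levels in the edited clone. Falls of at least 2-fold numbered 754 (5.28%) and rises of that size 279 (1.95%), while the median over the 12184 genes with at least 1 CPM in a KOPN-8 group was 0.01 on the log2 scale. Most changes of that size lay in weakly expressed genes, while falls of that size outnumbered rises at every level. In the lowest of 5 equal classes of protein-coding genes by mean level (0.534 to 11.2 CPM) 587 of 2084 fell and 254 rose, with 347 falls and 143 rises of at least 2-fold and a median of -0.13. The next 3 classes had 84, 33 and 31 falls of that size and 20, 11 and 3 rises. In the highest class (109 to 6221 CPM) 261 fell and 344 rose, with 16 falls and 3 rises of that size. Long non-coding genes fell more often than they rose, with 237 falls and 75 rises among 1128 (median -0.12), whereas protein-coding genes had 1795 falls and 1534 rises among 10419. Genes with a long span in the annotation were called more often, 856 of 2084 (41.1%) in the longest of 5 classes (at least 87634 bases from end to end) against 546 of 2084 (26.2%) in the shortest.

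**Figure D1:**
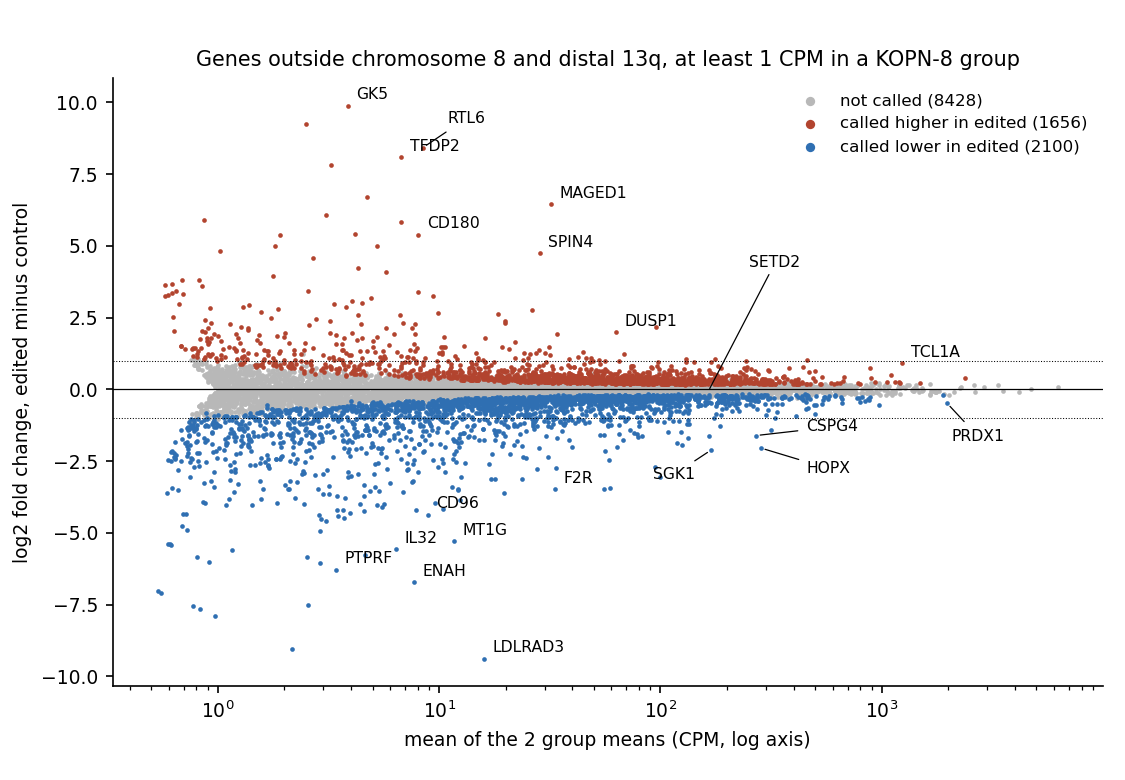
Log2 fold change, edited minus control, against the mean of the group means in CPM on a log axis, 1 point for each of the 12184 genes with at least 1 CPM in a KOPN-8 group outside chromosome 8 and distal 13q, with 1656 called higher in red and 2100 called lower in blue, and dotted lines at 2-fold. Points far from 0 crowd at low levels, more of them below 0 than above, and values of genes with 0 counts in a group come from the fit and are no bounds.

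**Figure D2:**
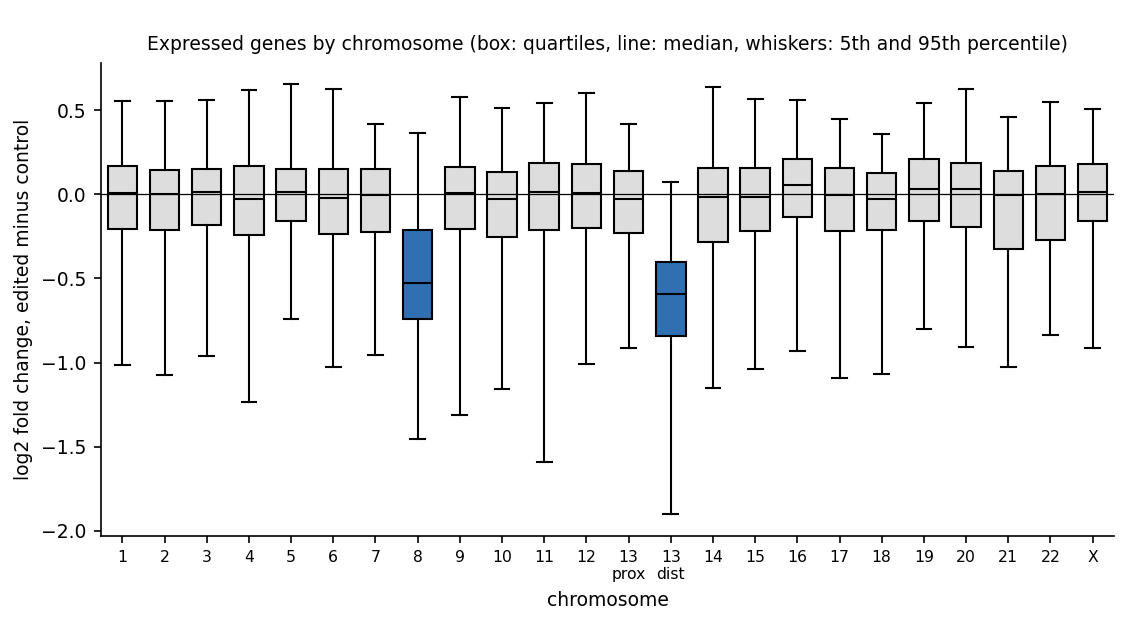
Log2 fold change, edited minus control, by chromosome for genes with at least 1 CPM in a KOPN-8 group, with boxes for the quartiles, a line at the median and whiskers at the 5th and 95th percentiles. The boxes of chromosome 8 and of the distal part of 13 lie wholly below 0, every other box spans 0, and nearly all whiskers reach farther down than up.

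By its median no other whole chromosome moved as a block. A break within a chromosome was sought only on chromosome 13, so smaller blocks elsewhere were not tested for. The share of genes called ran from 23.5% on chromosomes 7 and 16 to 35.0% on chromosome 21, and the medians from -0.03 on the proximal part of 13 to 0.05 on chromosome 16. Chromosomes 16, 19, 20 and X had more rises than falls, with 86 and 84, 147 and 137, 62 and 56, and 64 and 52. Rises of at least 2-fold were few on chromosome 7, with 1 among 719 genes (0.139%) beside 29 falls (4.03%). Chromosome 21 had 0 such rises and 9 falls (5.73%) among 157 genes. Over all genes outside the lower blocks the shares were 1.95% for rises and 5.28% for falls of that size.

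A small set of genes was near 0 counts in 1 group and expressed in the other. There were 27 of them, 7 higher and 20 lower in the edited clone, 22 of them protein-coding and none known to lie in the lower blocks, with 2 not placed on a chromosome. A promoter for 19 of them was in the RefSeq table (GRCh38.p14). The 250 bases before the start site are shown for RTL6, which was near 0 in the controls, for LDLRAD3, which was near 0 in the edited clone, and for CD180, which rose from a low level, because CD180 differs from the other two in its number of CG pairs, the sites that DNA methylation can occupy. Capitals mark CG.
RTL6: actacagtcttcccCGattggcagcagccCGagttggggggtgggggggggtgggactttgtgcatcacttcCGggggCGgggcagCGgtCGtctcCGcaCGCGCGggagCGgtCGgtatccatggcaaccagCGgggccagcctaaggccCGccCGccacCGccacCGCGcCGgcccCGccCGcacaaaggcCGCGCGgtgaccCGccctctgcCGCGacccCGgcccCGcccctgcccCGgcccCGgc
LDLRAD3: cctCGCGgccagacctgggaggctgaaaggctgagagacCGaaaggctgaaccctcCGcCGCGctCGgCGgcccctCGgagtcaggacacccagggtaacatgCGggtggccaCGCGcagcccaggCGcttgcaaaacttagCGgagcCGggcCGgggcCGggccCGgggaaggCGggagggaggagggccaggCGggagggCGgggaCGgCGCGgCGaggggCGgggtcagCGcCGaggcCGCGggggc
CD180: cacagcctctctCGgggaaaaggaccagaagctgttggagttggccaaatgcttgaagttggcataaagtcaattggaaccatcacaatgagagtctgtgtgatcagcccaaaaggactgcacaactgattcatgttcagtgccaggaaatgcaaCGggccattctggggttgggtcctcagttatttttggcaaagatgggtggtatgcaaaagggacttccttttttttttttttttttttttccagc
The windows lie at chr22:44498234-44498483 (minus strand), chr11:35943812-35944061 (plus strand) and chr5:67196800-67197049 (minus strand), upstream of the start and thus outside the transcribed part. They hold 31, 30 and 2 CG pairs. The 19 genes had a median of 24 CG pairs (range 2 to 39) by gene, against 23 over the 10185 tested genes outside the lower blocks that matched the table and 12 over all 27305 genes of it. Methylation was not measured in these libraries.

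Among the genes near 0 in the controls, RTL6, a gene derived from a retrotransposon, had 0, 0.116 and 0 CPM across the controls against 16.9, 18.7 and 15 CPM across the edited libraries. TFDP2, a partner of the E2F transcription factors, had 0, 0.116 and 0 CPM across the controls against 12.2, 13.2 and 14.9 CPM across the edited libraries. The 3 controls held 2 counts each in sum for RTL6 and for TFDP2, and every edited library was far above them. The ratio of edited to control was 409 (95% counting interval 113 to 3385) for RTL6 and 329.6 (95% counting interval 90.9 to 2727) for TFDP2. GK5, a glycerol kinase family member, had 7.15, 7.28 and 8.87 CPM in the edited clone and not 1 count in the controls, at least 128-fold higher against a floor of 3 counts over the group. MINPP1, a phosphatase of inositol polyphosphates, had 4.61, 6.03 and 4.43 CPM in the edited clone and also 0 counts in the controls, at least 80.6-fold higher. Intervals and floors cover counting error only. TFDP2 and GK5 are next to each other on chromosome 3 in the order of tested genes, and the genes on either side, ATP1B3 (121 ± 4.31 CPM across the controls against 94.8 ± 5.25 CPM across the edited libraries) and XRN1 (101 ± 3.03 CPM across the controls against 106 ± 2.67 CPM across the edited libraries), were expressed in both groups. These neighbours were looked up after the values of TFDP2 and GK5 were seen. ENTPD7, a nucleotidase, GRIP1, a scaffold protein with PDZ domains, and ACY3, an aminoacylase, completed the higher set, with 7.58, 5.81 and 5.99 CPM, 1.75, 2.06 and 2.11 CPM and 1.17, 1.84 and 2.16 CPM in the edited clone, in that order, and 1, 3 and 1 counts among the controls. In 697, TFDP2 had 127 and 120.0 CPM in control and edited libraries, GRIP1 58.2 and 43.8 CPM and MINPP1 8.31 and 7.5 CPM, so these genes were expressed in the other line whichever its genotype.

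The 20 genes near 0 in the edited clone were led by LDLRAD3, a receptor of the LDL receptor family, with 32.6, 31.9 and 31.5 CPM across the controls against 0, 0.0735 and 0.0554 CPM across the edited libraries. The 3 edited libraries held 2 counts of LDLRAD3 against 1567 in the controls, a ratio of control to edited of 807 (95% counting interval 223 to 6669). Its neighbours TRIM44 and COMMD9, looked up after its values were seen, had log2 fold changes of 0.07 and -0.11 and were not called. ZNF391, a zinc-finger protein, had 5.19, 4.83 and 5.33 CPM across the controls against 0.053, 0 and 0 CPM across the edited libraries, a ratio of 259 (95% counting interval 46 to 10251). Each of the control libraries was well above every edited one. TCEAL1, a member of the TCEAL family of X-linked nuclear proteins, went from 4.08, 4.08 and 4.84 CPM to 0 counts, at least 73.5-fold lower. RAB39B, a RAB GTPase, DHX57, a helicase, KCTD1, a BTB-domain protein, and ARHGAP6, a GTPase activator, likewise went to 0 counts from means of 1.94, 1.66, 1.55 and 1.07 CPM, at least 33.3-fold, at least 27.8-fold, at least 25.4-fold and at least 17.9-fold lower. FGF2, a fibroblast growth factor, went from 1.56, 1.81 and 2.07 CPM to 1 count in all, and HOMER3, a scaffold protein, from 1.41, 1.86 and 1.52 CPM to 1 count. EBI3, a cytokine subunit shared by IL27 and IL35, had 58 counts in the controls and 1 in the edited libraries, a ratio of 59.7 (95% counting interval 10.3 to 2400). The X-linked members TCEAL1, ZNF630, RAB39B and ARHGAP6 were all among the lower genes. Of the 27 genes, 16 had at least 1 CPM in 697, DHX57 at 10.02 and 15 CPM and HOMER3 at 18.5 and 17.4 CPM among them.

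**Figure D3:**
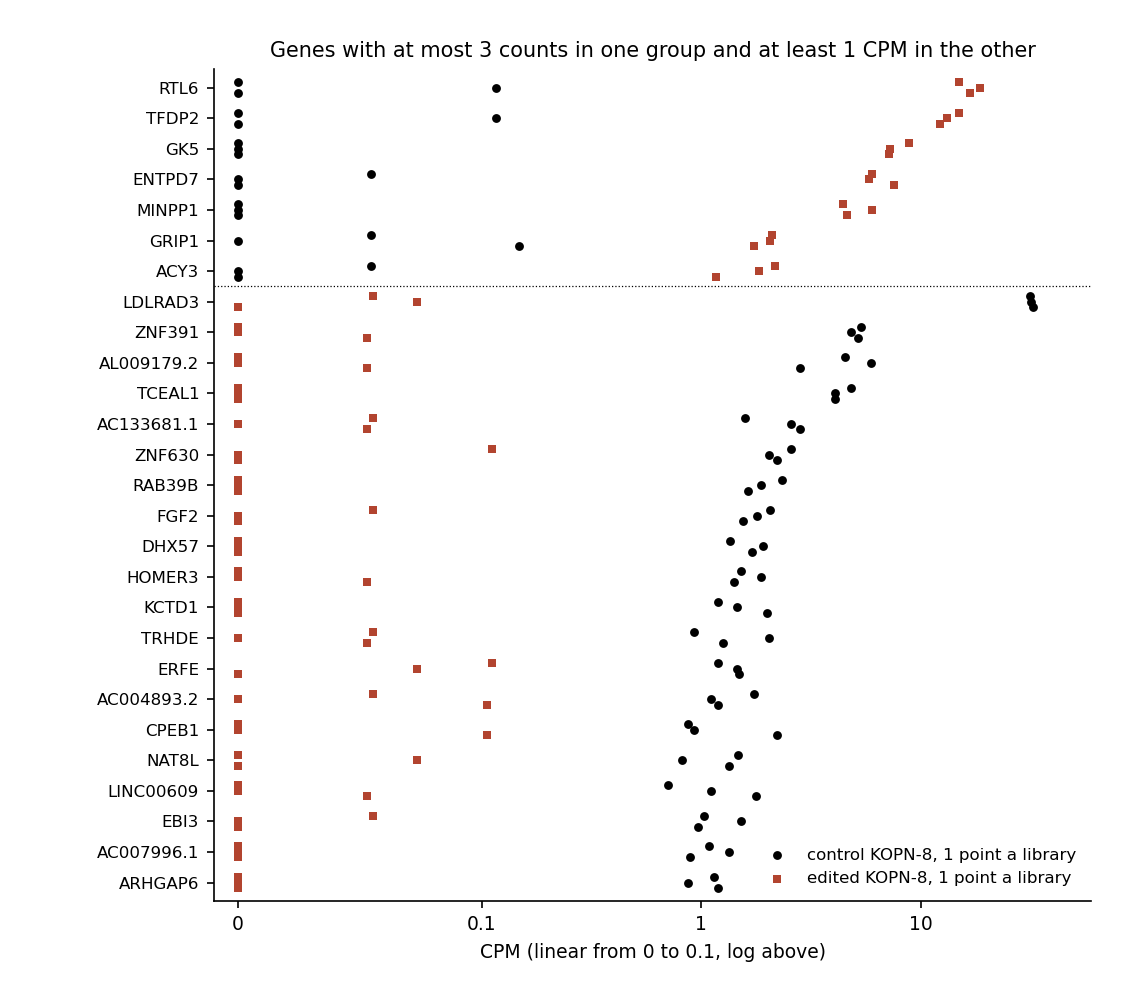
CPM in each of the 3 control (circles) and 3 edited (squares) KOPN-8 libraries for the 27 genes near 0 in 1 group, on an axis that is linear near 0 and logarithmic above. In the 7 genes of the upper part every edited library lies to the right of every control, and in the 20 genes of the lower part every control lies to the right of every edited library.

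Beyond that set, the rises of highest fold included MAGED1, a member of the MAGE family that is expressed outside the germ line, which had 1.34, 0.466 and 0.489 CPM across the controls against 66.5, 62.1 and 60.8 CPM across the edited libraries (log2 fold change 6.45, SE 0.163, adjusted p = 1.06e-18, edgeR quasi-likelihood). SPIN4, a reader of histone methylation of the spindlin family, had 2.15, 1.86 and 2.12 CPM across the controls against 58, 53.2 and 53.9 CPM across the edited libraries (log2 fold change 4.75, SE 0.124, adjusted p = 1.06e-18, edgeR). Both genes are X-linked and were high in every edited library. GNPDA2, which deaminates glucosamine phosphate, had 0.0742, 0 and 0.163 CPM across the controls against 8.32, 9.19 and 10.5 CPM across the edited libraries, and PPP1R26, a regulatory subunit of a protein phosphatase, 0.445, 0.116 and 0.163 CPM across the controls against 13.1, 14.6 and 12 CPM across the edited libraries. UNC13C, a vesicle-priming protein, rose by 5.4, FGD5, an exchange factor for CDC42, by 5.01 and SPART, the spartin gene, by 4.23 on the log2 scale.

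Among the falls of largest fold with at least 5 CPM, ENAH, an actin elongation factor, had 12.5, 17.9 and 15.4 CPM across the controls against 0.159, 0 and 0.222 CPM across the edited libraries (log2 fold change -6.71, SE 0.281, adjusted p = 3.78e-14, edgeR). PTPRF, a receptor tyrosine phosphatase, had 6.97, 6.52 and 6.85 CPM across the controls against 0.212, 0 and 0 CPM across the edited libraries (log2 fold change -6.28, SE 0.342, adjusted p = 9.12e-13, edgeR). Both were close to 0 in every edited library. CD96, a receptor for nectin-like ligands, had 17.7, 18.1 and 15.1 CPM across the controls against 0.742, 1.03 and 0.72 CPM across the edited libraries, and IL32, a cytokine made by lymphocytes, 11.8, 13.2 and 12.7 CPM across the controls against 0.371, 0.221 and 0.166 CPM across the edited libraries. Log2 fold changes were -4.51 for DLL3, an inhibitory Notch ligand, -4.47 for TSKU, a secreted proteoglycan, -4.41 for DMD, the dystrophin gene, -4.59 for TRO, a MAGE-related gene, and -4.92 for TMEM216, a cilium protein. DMD had 0.053, 0.882 and 0.111 CPM in the edited libraries, so that 1 of them, replicate 2, held most of what was left.

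The genes with the largest changes in CPM were abundant ones. TCL1A, an AKT coactivator of early B cells, had 828, 871 and 893 CPM across the controls against 1655, 1649 and 1545 CPM across the edited libraries. CORO1A, a coronin of leukocyte actin, had 722, 618 and 664 CPM across the controls against 1067, 1123 and 1135 CPM across the edited libraries. In both the lowest edited library was above the highest control, which the rule that named them required. GAPDH, the glycolytic dehydrogenase, rose by 0.38, PFN1, profilin, by 0.39, MBNL1, a splicing regulator and target of KMT2A fusions, by 0.50 and VAT1L by 1.02 on the log2 scale. In the other direction, HOPX, a homeodomain-only protein of early progenitors, had 498, 449 and 428 CPM across the controls against 116, 113 and 104 CPM across the edited libraries (log2 fold change -2.05, SE 0.0762, adjusted p = 5.88e-15, edgeR). CSPG4, the NG2 proteoglycan that marks KMT2A-rearranged leukaemia, had 453, 397 and 372 CPM across the controls against 144, 136 and 120.3 CPM across the edited libraries (log2 fold change -1.61, SE 0.0803, adjusted p = 1.51e-13, edgeR). CLEC11A, a growth factor for blood progenitors, had 478, 446 and 461 CPM across the controls against 182, 169 and 166 CPM across the edited libraries. All 3 were far below every control in each edited library, and lack of overlap was again required by the rule. Log2 fold changes were -0.49 for PRDX1, a peroxiredoxin, -0.53 for SKAP2, an adaptor next to the HOXA cluster, -0.86 for ACSL1, which activates fatty acids, and -0.42 for DIAPH1, a formin.

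Some called genes of at least 2-fold stood side by side. Outside the lower blocks there were 20 runs of 3 or more neighbouring tested genes that all rose or all fell at least 2-fold, 4 higher and 16 lower, with 64 of the 1033 genes called at that size. Only 6 runs held protein-coding genes alone, and several were made of a gene with its antisense or overlapping partner. The use of strand in counting is not given in the sources used here, and reads of such pairs cannot be told apart. The run of 5, the longest, was the metallothionein cluster of chromosome 16. Metallothioneins are small cysteine-rich proteins that bind zinc and copper, and their genes are switched on by the zinc-sensing factor MTF1 at metal response elements.

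Promoters of 2 metallothionein genes are shown because the whole tested cluster fell. Capitals mark each match to the core of the metal response element, TGCACNC or TGCGCNC, on either strand.
MT2A: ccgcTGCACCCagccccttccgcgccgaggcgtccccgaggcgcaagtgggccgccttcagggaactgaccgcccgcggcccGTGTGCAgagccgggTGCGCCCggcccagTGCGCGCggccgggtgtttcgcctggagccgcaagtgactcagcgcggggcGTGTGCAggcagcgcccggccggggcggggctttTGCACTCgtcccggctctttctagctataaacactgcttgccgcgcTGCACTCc
MT1X: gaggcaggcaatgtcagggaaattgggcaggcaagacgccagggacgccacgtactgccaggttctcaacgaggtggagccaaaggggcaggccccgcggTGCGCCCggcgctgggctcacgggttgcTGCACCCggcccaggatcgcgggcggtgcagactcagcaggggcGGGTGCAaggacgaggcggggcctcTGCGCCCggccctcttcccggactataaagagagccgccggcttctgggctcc
The windows are chr16:56608334-56608583 and chr16:56682220-56682469 (RefSeq, GRCh38.p14, both on the plus strand), the 250 bases before each start. MT2A has 7 matches and MT1X 4, overlapping ones included. At least 1 match is found in 24.8% of the 35116 promoters of that length in the table, at least 2 in 6.48% and at least 4 in 0.370%. A match is a description of the letters, and binding was not measured here.

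Each of the 5 metallothionein genes tested fell, none overlapping between groups, as was so for 2162 of the 2207 falls outside the lower blocks. MT1G had 22.6, 22.6 and 23.3 CPM across the controls against 0.424, 0.662 and 0.665 CPM across the edited libraries (log2 fold change -5.29, SE 0.252, adjusted p = 1.10e-11, edgeR). MT1F had 16.1, 18.8 and 17.6 CPM across the controls against 3.6, 2.87 and 3.1 CPM across the edited libraries (log2 fold change -2.44, SE 0.168, adjusted p = 4.21e-11, edgeR). MT1E had 13.4, 15.9 and 14.3 CPM across the controls against 4.29, 4.26 and 3.16 CPM across the edited libraries (log2 fold change -1.9, SE 0.156, adjusted p = 1.01e-09, edgeR). MT1G was thus nearly lost, while MT1E and MT1F kept a few CPM. MT2A, the most abundant, had 51.7, 52.3 and 48.7 CPM across the controls against 22.4, 23.5 and 19.6 CPM across the edited libraries (log2 fold change -1.22, SE 0.10, adjusted p = 9.82e-10, edgeR), and MT1X 19.7, 19.8 and 20.8 CPM across the controls against 9.11, 9.26 and 6.87 CPM across the edited libraries (log2 fold change -1.26, SE 0.116, adjusted p = 7.08e-09, edgeR). MTF1, their activator, had 28.6 ± 3.06 CPM across the controls against 34 ± 0.549 CPM across the edited libraries and a log2 fold change of 0.25 (edgeR adjusted p = 0.0525), not called here but called higher with RLE or upper-quartile scaling and by DESeq2. SLC30A1, a zinc exporter and another MTF1 target, had a log2 fold change of -0.08 and was not called. The metallothionein genes share much sequence, so reads could be divided unevenly between them.

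Other runs covered known neighbours. On chromosome 4, ANTXR2, an anthrax toxin receptor, fell from 182 ± 9.13 to 65.5 ± 8.13 CPM (SD, n = 3) and PRDM8, a PR-domain factor, from 12.8 ± 2.29 to 3.38 ± 0.766 CPM, with the non-coding AC021127.1 between them. The run next to it went the other way. CFAP299 and BMP3, without a count in the controls, had means of 0.232 and 0.304 CPM in the edited clone, close to the floor, and RASGEF1B, an exchange factor, rose from 1.06 ± 0.196 to 2.14 ± 0.527 CPM, a call that was lost without control replicate 3 or edited replicate 2. On the X chromosome OCRL, an inositol phosphatase, APLN, the apelin peptide, and XPNPEP2, an aminopeptidase, fell with log2 fold changes of -3.06, -2.56 and -2.88. On chromosome 19, BCL3, an NFkB cofactor, BCAM, a laminin receptor, and NECTIN2, a nectin, fell (-1.36, -1.86 and -1.52). On chromosome 13, proximal to the lower part, NBEA, neurobeachin, rose by 2.8, SPART by 4.23 and CCNA1, a cyclin and KMT2A-fusion target, by 1.09. On chromosome 12, TPH2, tryptophan hydroxylase, fell from 6.61 ± 1.17 to 0.324 ± 0.284 CPM and TRHDE, a peptidase, from 1.41 ± 0.572 to 0.0361 ± 0.0313 CPM, again with an antisense gene between them. On chromosome 1, MIR34AHG and LNCTAM34A, the host transcripts around a p53-induced microRNA, fell (-2.02 and -2.22).

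The Toll-like receptor genes of chromosome 4, chosen after their values were seen, rose together. These receptors sense microbial lipids, and TLR10 is typical of B cells. TLR10 had 1.71, 1.57 and 1.96 CPM across the controls against 13, 17.3 and 20.6 CPM across the edited libraries (log2 fold change 3.27, SE 0.208, adjusted p = 1.18e-11, edgeR). TLR6 had 0.965, 0.466 and 0.87 CPM across the controls against 4.19, 6.03 and 7.65 CPM across the edited libraries (log2 fold change 2.96, SE 0.292, adjusted p = 2.17e-08, edgeR). TLR1 had 11.4, 12.2 and 12.1 CPM across the controls against 20.1, 24.6 and 25.3 CPM across the edited libraries (log2 fold change 0.97, SE 0.118, adjusted p = 6.33e-07, edgeR). In all 3 the groups did not overlap and edited replicate 1 was the lowest of the edited libraries. CD180, a Toll-like homologue of B cells whose promoter is shown above, had 0.371, 0.408 and 0.326 CPM across the controls against 14.9, 15.6 and 16.7 CPM across the edited libraries (log2 fold change 5.39, SE 0.239, adjusted p = 8.22e-13, edgeR).

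The B-lineage genes were taken by role. Of 26 pre-B receptor and signalling genes 11 rose and 5 fell (median log2 fold change 0.09, against 0.00 over all genes tested, with 11.5% and 17.2% of genes called higher and lower). Those shares are the background for the counts of every list below. Of the 54 lists, 40 had a share called above the 28.7% over all genes tested. VPREB3, a chaperone of the pre-B receptor, had 28.3, 29.7 and 46.5 CPM across the controls against 120.5, 164 and 185 CPM across the edited libraries (log2 fold change 2.16, SE 0.215, adjusted p = 3.88e-05, edgeR). VPREB1 and IGLL1, components of the receptor itself, had lower means in the edited libraries. VPREB1 went from 597 ± 22.7 to 498 ± 2.67 CPM and IGLL1 from 502 ± 49.9 to 409 ± 32.1 CPM (SD, n = 3). BLK, a SRC-family kinase of B cells on chromosome 8, had 2.23, 1.86 and 2.01 CPM across the controls against 13.1, 18.2 and 20.6 CPM across the edited libraries (log2 fold change 3.09, SE 0.241, adjusted p = 2.09e-07, edgeR) and so rose on a chromosome where 303 of 517 genes fell. CD72, a coreceptor, PIK3AP1, an adaptor for PI3K, and PTPRC, the CD45 phosphatase, rose by 0.63, 0.75 and 0.60, while FYN, a SRC-family kinase, and INPP5D, the SHIP phosphatase, fell (-1.06 and -0.43).

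Of 29 B-cell surface antigens 10 rose and 10 fell (median 0.07). MS4A1, the CD20 antigen, had 0.148, 0.408 and 0.0543 CPM across the controls against 2.01, 7.2 and 6.26 CPM across the edited libraries (log2 fold change 4.58, SE 0.63, adjusted p = 5.84e-05, edgeR). FCRL1, an Fc receptor-like coreceptor, had 6.6, 6.29 and 6.3 CPM across the controls against 27.1, 30.6 and 42.3 CPM across the edited libraries, and its relative FCRL2 0.223, 0.408 and 0.272 CPM across the controls against 1.43, 3.01 and 2.44 CPM across the edited libraries. The 3 genes were higher in each edited library than in any control, and lowest among the edited libraries in replicate 1. CD9, a tetraspanin, had 29.2, 26.7 and 26.2 CPM across the controls against 10.2, 13.2 and 12 CPM across the edited libraries (log2 fold change -1.22, SE 0.148, adjusted p = 8.70e-06, edgeR), and CD58, a ligand of CD2, CD70, a ligand of CD27, MME, the CD10 antigen, and CD38 fell (-0.64, -0.60, -0.35 and -0.29).

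Of 41 B-cell transcription factors 11 rose and 10 fell (median -0.06). BCL11A, a zinc-finger factor of lymphoid progenitors, had 16.1 ± 1.29 CPM across the controls against 6.95 ± 0.91 CPM across the edited libraries (log2 fold change -1.21), and ERG, POU2F2 and ETV6 fell (-0.96, -0.78 and -0.52). The factors of B-cell commitment PAX5, EBF1 and IKZF1 rose by 0.44, 0.41 and 0.35, ETS1 by 0.60 and SPIB, a PU.1 relative, by 0.49. Of the 14 genes of V(D)J recombination and class switching 1 rose (0 to 1 with 1 library left out, moved over 1.5-fold without control replicate 2) and 3 fell. RAG1, a subunit of the recombinase, had 253, 274 and 259 CPM across the controls against 116, 111 and 98.1 CPM across the edited libraries (log2 fold change -1.28, SE 0.0824, adjusted p = 1.47e-11, edgeR). DNTT, which adds untemplated bases at the joints, had 2.15, 2.5 and 1.41 CPM across the controls against 0.636, 0.294 and 0.277 CPM across the edited libraries. LIG4, a ligase on distal 13q, fell by 0.84, and UNG, a uracil glycosylase and the 1 that rose, changed by 0.27. The share of the recombination list called, 28.6%, was near the 28.7% over all genes tested. Of the heavy-chain constant segments, chosen after their values were seen, IGHA1, the alpha segment, rose from 2.63 ± 0.828 to 13 ± 3.58 CPM (SD, n = 3) while the mu segment IGHM had 863 ± 45.4 CPM across the controls against 937 ± 52.6 CPM across the edited libraries and was not called.

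**Figure D4:**
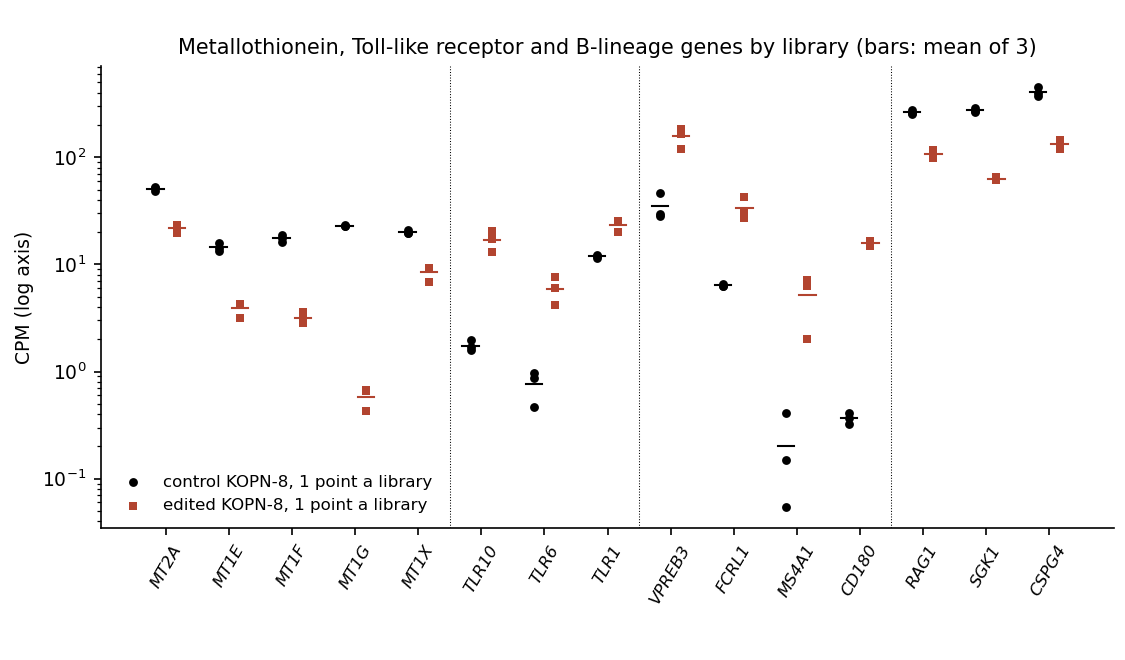
CPM on a log axis in each of the 3 control (circles) and 3 edited (squares) KOPN-8 libraries, with a bar at each group mean, for metallothionein, Toll-like receptor and B-lineage genes and, at the right, RAG1, SGK1 and CSPG4. The metallothioneins and the last 3 genes lie lower in every edited library, the Toll-like receptors and VPREB3, FCRL1, MS4A1 and CD180 lie higher, and MS4A1 spreads most within a group.

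Receptors for cytokines and chemokines moved both ways. Of 35 cytokine receptors and JAK-STAT genes 12 rose and 11 fell (5 to 9 with 1 library left out, moved over 1.5-fold without control replicate 1 or 2 or edited replicate 2 or 3) (median 0.05). IL27RA, the receptor of IL27, had 39.7, 37.9 and 35.3 CPM across the controls against 8.32, 10.1 and 10.6 CPM across the edited libraries (log2 fold change -1.96, SE 0.118, adjusted p = 4.28e-12, edgeR). IL15RA, IFNGR1 and STAT5B fell (-1.23, -0.74 and -0.71). IL7R, the receptor that early B cells depend on, went from 134 ± 7.77 to 199.9 ± 17 CPM (SD, n = 3), and CSF2RB, the shared beta chain, IL21R and IFNGR2 rose by 1.13, 0.99 and 0.74. The chains of the interferon-gamma receptor, IFNGR1 and IFNGR2, thus moved in opposite directions.

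Of 10 genes of the chemokine and sphingosine system 4 rose and 4 fell (2 to 4 with 1 library left out, moved over 1.5-fold without control replicate 2 or 3 or edited replicate 3) (median -0.54). CXCR2, a chemokine receptor best known from neutrophils, had 0.0742, 0.0582 and 0.109 CPM across the controls against 6.31, 6.18 and 5.82 CPM across the edited libraries (log2 fold change 6.09, SE 0.382, adjusted p = 3.41e-11, edgeR). CXCR4, which holds B-cell progenitors in the marrow, had 109, 129 and 109.6 CPM across the controls against 209, 248 and 214 CPM across the edited libraries, and S1PR2, a sphingosine receptor, 4.15, 4.66 and 5.05 CPM across the controls against 16.3, 17.6 and 15.2 CPM across the edited libraries. All 3 were higher in each edited library. CCR7, a lymph-node homing receptor, had 43.8, 44.3 and 32.9 CPM across the controls against 21.8, 23.7 and 19.5 CPM across the edited libraries, and S1PR3 29.5, 34.5 and 33.5 CPM across the controls against 20.5, 19.6 and 20.01 CPM across the edited libraries. Both were lower in each edited library.

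Adhesion genes leaned lower, 6 up and 11 down of 29 (median -0.18, 58.6% called). Over all genes tested 28.7% were called, and falls outnumbered rises there too. ITGB7, the integrin beta chain of gut homing, had 13.8, 15.3 and 16.9 CPM across the controls against 29.9, 39.7 and 39.2 CPM across the edited libraries. ICAM3 rose by 0.95, while ESAM, an endothelial adhesion molecule, and CD48, a SLAM-family ligand, fell (-1.83 and -0.81). Of 48 regulators of actin 8 rose and 14 fell (median -0.00, 45.8% called). Beside ENAH (-6.71), FSCN1, the bundling protein fascin, fell from 10.9 ± 1.05 to 1.13 ± 0.461 CPM (SD, n = 3) and CORO2A from 2.18 ± 0.0752 to 0.629 ± 0.217 CPM. Rises were seen for WASF1, an activator of branched actin, from 66.2 ± 4.5 to 129 ± 9.1 CPM, for CTTN, cortactin, from 1.71 ± 0.308 to 5.1 ± 0.36 CPM and for FLNA, a filamin, from 308 ± 10.8 to 411 ± 16.5 CPM.

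Regulators of small GTPases fell more often than they rose, 19 of 55 against 9 (5 to 9 with 1 library left out, moved over 1.5-fold without control replicate 2) (median -0.13). Of this list 50.9% was called, and falls also outnumbered rises over all genes tested. ARHGEF3, an exchange factor for a small GTPase, had 206, 218 and 188 CPM across the controls against 62, 68.8 and 58.8 CPM across the edited libraries (log2 fold change -1.69, SE 0.0811, adjusted p = 4.09e-13, edgeR). ARHGAP22, a RAC inhibitor, fell from 11.4 ± 0.91 to 2.04 ± 1.4 CPM, RAC3 from 10.8 ± 1.09 to 5.37 ± 0.581 CPM and RASGRP1, an activator of RAS in lymphocytes, from 145 ± 8.78 to 97.6 ± 9.56 CPM. RHOH, a small GTPase of blood cells, rose from 50.6 ± 0.638 to 70.3 ± 2.74 CPM. Of 14 protein kinase C genes 6 fell and 1 rose (0 to 1 with 1 library left out, moved over 1.5-fold without control replicate 2 or 3 or edited replicate 1 or 3). PRKCH, the eta isoform, had 170.4, 154 and 154 CPM across the controls against 63.4, 59.9 and 49.4 CPM across the edited libraries (log2 fold change -1.47, SE 0.086, adjusted p = 2.66e-12, edgeR), and PRKCA and PRKCE fell (-0.67 and -0.24).

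Receptor tyrosine kinases and receptor phosphatases were among the lists with the most falls, 12 of 31 against 3 rises (1 to 3 with 1 library left out, moved over 1.5-fold without edited replicate 1), with a median of -0.44. FLT1, a VEGF receptor, had 41.3, 44.1 and 38.5 CPM across the controls against 7.15, 8.97 and 7.81 CPM across the edited libraries (log2 fold change -2.38, SE 0.118, adjusted p = 3.75e-13, edgeR). EPHB3, an ephrin receptor, had 20.6, 19.9 and 17.9 CPM across the controls against 3.71, 3.53 and 3.55 CPM across the edited libraries (log2 fold change -2.43, SE 0.233, adjusted p = 1.72e-07, edgeR). FGFR1, an FGF receptor on chromosome 8, had 203, 234 and 214 CPM across the controls against 76.6, 67 and 59.7 CPM across the edited libraries (log2 fold change -1.68, SE 0.0862, adjusted p = 3.26e-13, edgeR), a fall larger than that chromosome's median of -0.52. IGF1R, the IGF receptor, fell from 13.7 ± 0.448 to 6.85 ± 1.36 CPM and TYRO3, a TAM receptor, from 5.44 ± 0.442 to 1.82 ± 0.34 CPM (SD, n = 3). With FGF2 at 1 count and FGFR1 down, a ligand and a receptor of the FGF family were both lower.

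Guidance genes, named for axons but used by many migrating cells, had 10 falls and 7 rises (4 to 6 with 1 library left out, moved over 1.5-fold without control replicate 1 or edited replicate 3) among 30 (median -0.30). Of this list 56.7% was called, and over all genes tested falls (17.2%) outnumbered rises (11.5%) as well. PLXNA1, a plexin, had 11.8, 9.9 and 10.2 CPM across the controls against 0.689, 0.882 and 0.443 CPM across the edited libraries (log2 fold change -4.000, SE 0.225, adjusted p = 1.24e-12, edgeR). SLIT2, a secreted ligand of the ROBO receptors, had 16, 16.5 and 18.7 CPM across the controls against 2.91, 2.35 and 2.49 CPM across the edited libraries (log2 fold change -2.71, SE 0.18, adjusted p = 4.16e-11, edgeR). NRP2, a neuropilin, had 23, 18.1 and 20.3 CPM across the controls against 7.05, 6.62 and 5.54 CPM across the edited libraries. Each was lower in every edited library than in any control. SEMA4A and SEMA4B, membrane semaphorins, rose from 5.7 ± 0.861 to 15.6 ± 0.215 CPM and 8.34 ± 0.831 to 14.3 ± 0.717 CPM (SD, n = 3). Among 19 cadherins and protocadherins 5 rose and 3 fell, and the median was 0.54. The 5 that rose were all of the gamma protocadherin cluster, PCDHGC3 (1.06), PCDHGA6 (1.09), PCDHGC5 (2.14), PCDHGB3 (1.69) and PCDHGB2 (0.72), which share their last exons, so reads of the shared part cannot be assigned to 1 member. CDH24, a classical cadherin, fell from 80.5 ± 4.79 to 26.5 ± 3.01 CPM.

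**Figure D5:**
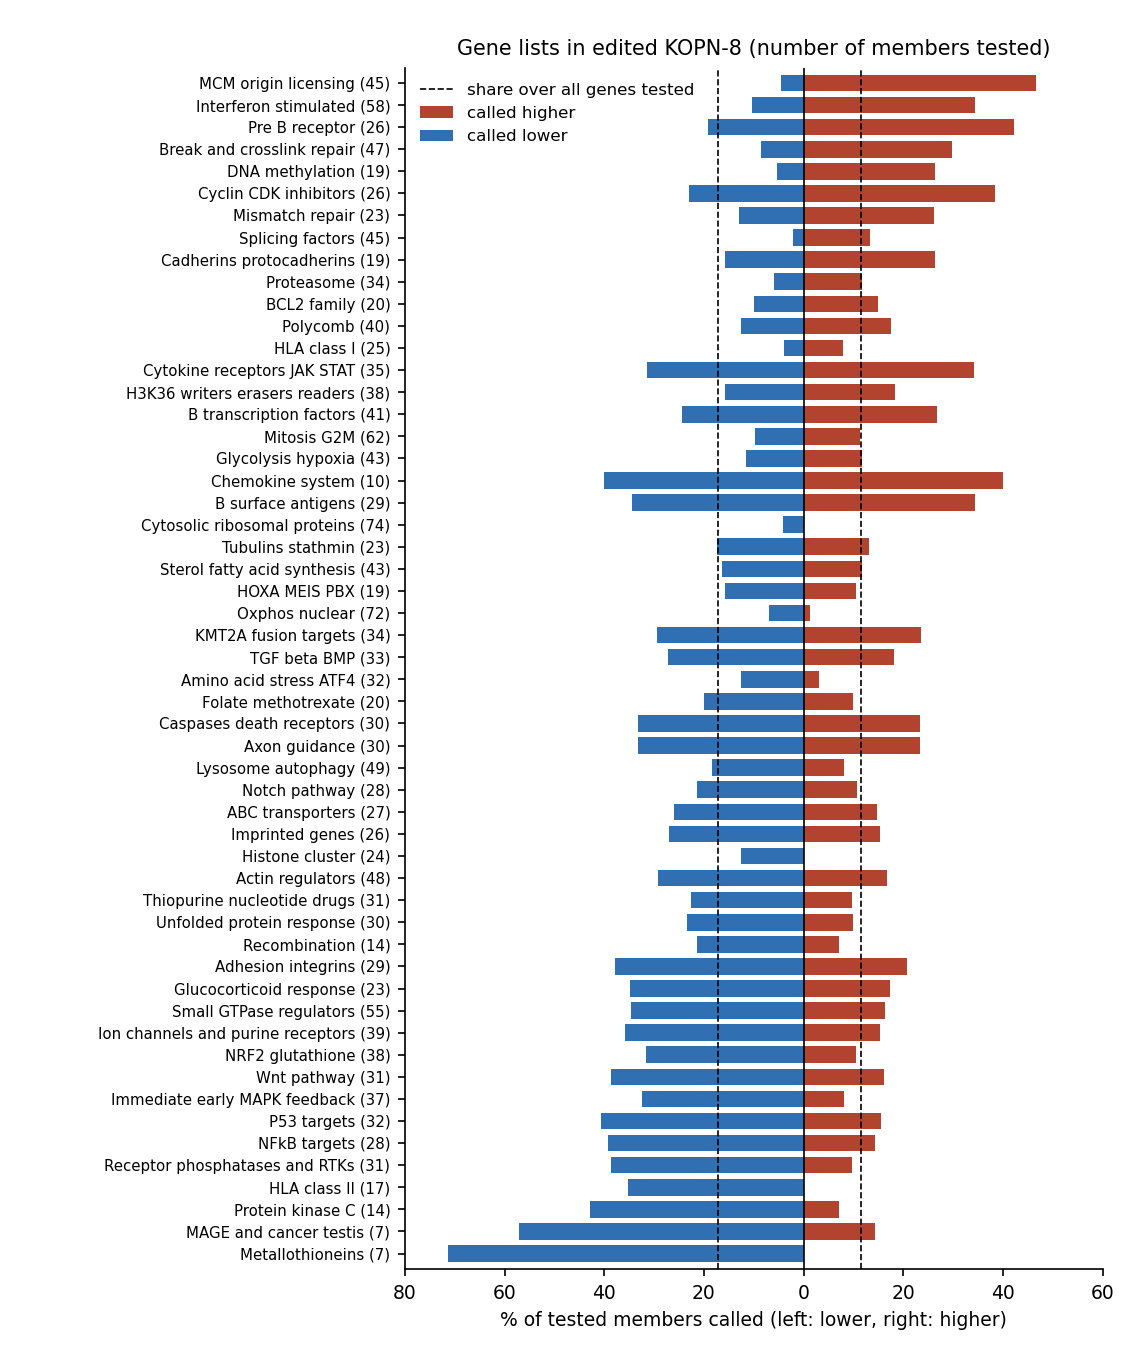
Percentage of the tested members of each of 54 gene lists called higher (to the right) and lower (to the left) in the edited KOPN-8 libraries, with the number of members tested in brackets and dashed lines at the shares over all genes tested, 11.5% and 17.2%. The lists are sorted by the difference of the shares, with origin licensing at the top and the metallothionein list (MTF1 and SLC30A1 included), of which 5 of 7 fell, at the bottom.

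The lists of developmental signalling pathways had medians near 0. Of 31 Wnt genes 5 rose and 12 fell (median -0.03, 54.8% called). FZD3, a Frizzled receptor on chromosome 8, had 13.1, 13.2 and 12.9 CPM across the controls against 0.848, 0.294 and 0.333 CPM across the edited libraries (log2 fold change -4.65, SE 0.198, adjusted p = 8.07e-15, edgeR). LRP5, a Wnt coreceptor, had 63.1, 58.1 and 59.9 CPM across the controls against 31.3, 27.9 and 27.6 CPM across the edited libraries. AXIN2, a feedback target of the pathway, rose from 2.41 ± 0.582 to 4.84 ± 1.01 CPM (SD, n = 3) and ROR1, a receptor of leukaemic B cells, from 6.64 ± 0.732 to 13 ± 1.23 CPM, while TCF7, the T-cell partner of beta-catenin, fell by 0.54. Of 28 Notch genes 3 rose and 6 fell (median -0.03, 32.1% called against 28.7% over all genes tested). NOTCH2, the receptor of the B lineage, had 84.5, 83.6 and 81.2 CPM across the controls against 26, 30.4 and 27.2 CPM across the edited libraries (log2 fold change -1.58, SE 0.0813, adjusted p = 2.71e-13, edgeR). The targets HES7 and NRARP fell (-2.58 and -1.14), and DTX1, deltex, rose from 41.1 ± 2.83 to 95.6 ± 5.25 CPM. Of 33 TGF-beta and BMP genes 6 rose (3 to 5 with 1 library left out, moved over 1.5-fold without control replicate 3 or edited replicate 3) and 9 fell (median -0.06, 45.5% called). The receptors ACVR2B and BMPR2 fell from 66.3 ± 5.56 to 35.3 ± 1.54 CPM and 8.24 ± 1.05 to 3.26 ± 0.283 CPM, and BMP8B, a ligand, rose from 16.3 ± 1.73 to 34.3 ± 3.4 CPM.

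Feedback genes of the MAPK pathway leaned lower, 12 of 37 against 3 that rose (median -0.20, 40.5% called). DUSP7, an ERK phosphatase, had 118, 116 and 116 CPM across the controls against 61.4, 61 and 57.9 CPM across the edited libraries (log2 fold change -0.96, SE 0.0668, adjusted p = 5.45e-11, edgeR). IER5, an immediate early gene, had 112, 101 and 105 CPM across the controls against 42.7, 41.2 and 35.2 CPM across the edited libraries (log2 fold change -1.42, SE 0.0873, adjusted p = 6.73e-12, edgeR). DUSP4, on chromosome 8, had 33.3, 33.1 and 35.3 CPM across the controls against 1.48, 4.26 and 2.16 CPM across the edited libraries (log2 fold change -3.76, SE 0.188, adjusted p = 7.70e-11, edgeR). The 3 genes that rose were DUSP1, JUN and FOSB. DUSP1, a phosphatase of JNK and p38, had 26.9, 25.9 and 22.9 CPM across the controls against 105, 112 and 83.7 CPM across the edited libraries (log2 fold change 1.99, SE 0.115, adjusted p = 8.81e-11, edgeR), so that 2 phosphatases of the family fell in each edited library and 1 rose. JUN and FOSB, subunits of AP-1, rose from 2.06 ± 0.465 to 4.59 ± 0.732 CPM and 3.34 ± 0.502 to 6.39 ± 0.711 CPM (SD, n = 3).

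Glucocorticoids are a mainstay of treatment of this leukaemia, and DUSP1 is also on the list of their target genes. Of 23 such genes 4 rose and 8 fell (median -0.08). The receptor NR3C1 had 241 ± 5.96 CPM across the controls against 241 ± 16.3 CPM across the edited libraries and was not called (log2 fold change -0.00, SE 0.068). SGK1, a serum- and glucocorticoid-regulated kinase, had 267, 289 and 268 CPM across the controls against 60.8, 65.7 and 63.5 CPM across the edited libraries (log2 fold change -2.12, SE 0.0817, adjusted p = 1.29e-15, edgeR). FKBP4, a cochaperone of the receptor, had 112, 124 and 121 CPM across the controls against 38.6, 43.7 and 32.7 CPM across the edited libraries (log2 fold change -1.64, SE 0.104, adjusted p = 6.45e-11, edgeR). FKBP5, its counterpart and a target gene, had 227, 230.4 and 231 CPM across the controls against 171, 165 and 153 CPM across the edited libraries (log2 fold change -0.50, SE 0.0615, adjusted p = 7.89e-07, edgeR). The 3 genes were lower in each edited library. TSC22D3, KLF9 and PER1, other targets, fell (-0.36, -0.42 and -0.37). No hormone was added as far as the labels say.

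Genes that handle other leukaemia drugs moved both ways. Among 31 genes of thiopurine and nucleoside handling 3 rose and 7 fell (32.3% called, near the 28.7% over all genes tested). TPMT, the thiopurine methyltransferase, had 6.31, 5.01 and 5.38 CPM across the controls against 1.75, 3.01 and 2.83 CPM across the edited libraries. ADA, adenosine deaminase, had 156, 138 and 134 CPM across the controls against 70.5, 62.6 and 59.3 CPM across the edited libraries. SLC28A3, a nucleoside carrier, had 4.97, 5.94 and 4.95 CPM across the controls against 0.689, 0.588 and 0.72 CPM across the edited libraries. All 3 fell in each edited library, while SAMHD1, which hydrolyses nucleotides and inactivates cytarabine, and NT5E, the CD73 ectonucleotidase, rose from 193 ± 2.77 to 253 ± 22.4 CPM and 41 ± 3.07 to 64 ± 5.12 CPM (SD, n = 3). Of 27 ABC transporters 4 rose (2 to 4 with 1 library left out, moved over 1.5-fold without edited replicate 3) and 7 fell (40.7% called). ABCA1, a cholesterol exporter, fell from 29.7 ± 4.21 to 15.5 ± 2.32 CPM and ABCD2, a peroxisomal carrier, from 5.69 ± 0.868 to 1.65 ± 0.698 CPM.

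The redox genes were divided. Of 38 genes of glutathione, thioredoxin and NRF2 targets 4 rose (2 to 6 with 1 library left out, moved over 1.5-fold without control replicate 2 or edited replicate 1 or 2) and 12 fell (7 to 12 with 1 library left out, moved over 1.5-fold without edited replicate 3) (median -0.09). TXN, thioredoxin, had 115, 119.7 and 116 CPM across the controls against 41.1, 41 and 38.2 CPM across the edited libraries (log2 fold change -1.54, SE 0.0758, adjusted p = 1.15e-13, edgeR). PRDX4, a secretory peroxiredoxin, had 52.1, 48.3 and 51.5 CPM across the controls against 39.4, 38 and 31.4 CPM across the edited libraries, and PRDX1 2330, 2364 and 2214 CPM across the controls against 1673, 1718 and 1543 CPM across the edited libraries. Those antioxidant enzymes were lower in each edited library. The catalytic and modifier subunits of glutamate-cysteine ligase, GCLC and GCLM, which make the precursor of glutathione, rose from 18.9 ± 0.309 to 30.2 ± 0.196 CPM and 15.5 ± 1.92 to 26.5 ± 1.83 CPM (SD, n = 3).

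No gene called in the lists of replication and of mitosis moved by 2-fold. Of 45 genes of origin licensing and the replication fork 21 rose (11 to 18 with 1 library left out, moved over 1.5-fold without control replicate 1 or 2 or edited replicate 1 or 2) and 2 fell (0 to 2 with 1 library left out, moved over 1.5-fold without control replicate 2 or 3 or edited replicate 1, 2 or 3), with a median of 0.19. GINS3, a subunit of the replicative helicase, had 61.1, 66.5 and 72.4 CPM across the controls against 120.2, 117 and 105 CPM across the edited libraries (log2 fold change 0.77, SE 0.0886, adjusted p = 2.52e-07, edgeR). MCM5, another helicase subunit, had 222, 206 and 249 CPM across the controls against 317, 321 and 333 CPM across the edited libraries (log2 fold change 0.52, SE 0.0848, adjusted p = 4.37e-05, edgeR). RFC5, a subunit of the clamp loader, had 78.3, 86.4 and 89.998 CPM across the controls against 116, 116 and 129 CPM across the edited libraries (log2 fold change 0.50, SE 0.0715, adjusted p = 5.74e-06, edgeR). The groups did not overlap in these 3. Of 62 genes of mitosis 7 rose (2 to 8 with 1 library left out, moved over 1.5-fold without control replicate 1 or 3 or edited replicate 1 or 2) and 6 fell (3 to 6 with 1 library left out, moved over 1.5-fold without control replicate 2 or edited replicate 3) (median 0.06). PLK1, the mitotic kinase, had 194, 188 and 185 CPM across the controls against 133, 135 and 121 CPM across the edited libraries (log2 fold change -0.54, SE 0.0727, adjusted p = 2.79e-06, edgeR), while PLK4, the kinase of centriole duplication, rose from 97.2 ± 4.3 to 122 ± 0.704 CPM (SD, n = 3). Of 26 cyclins, CDKs, inhibitors and E2F genes 10 rose and 6 fell, 3 of them by at least 2-fold (TFDP2, CCND1 and E2F5, the last on chromosome 8). E2F2, E2F1, E2F3 and CDK2 rose by 0.69, 0.45, 0.53 and 0.41 beside the E2F partner TFDP2, while its relative TFDP1, on distal 13q, fell from 289.9 ± 13.8 to 159.9 ± 11.5 CPM. CCND1, cyclin D1, fell from 13.7 ± 2.31 to 1.47 ± 0.022 CPM.

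Targets of the KMT2A fusion did not move as 1 group. Of 34 listed targets 8 rose and 10 fell (median -0.05). Beside CSPG4, falls were seen for IGF2BP2, an RNA-binding protein, from 124 ± 6.49 to 85.2 ± 1.84 CPM, and for SUPT3H from 106 ± 4.15 to 71.5 ± 1.5 CPM (SD, n = 3). CDK6, a kinase that these leukaemias depend on, rose from 422 ± 16.9 to 559.5 ± 16.9 CPM, and ARID1B, a SWI/SNF subunit, from 116 ± 5.45 to 154 ± 5.71 CPM. Of 19 HOXA, MEIS and PBX genes 3 fell, HOXA9 (-0.30), HOXA11 (-0.36) and HOTAIRM1 (-0.62), and 2 rose (1 to 2 with 1 library left out, moved over 1.5-fold without control replicate 1 or 2 or edited replicate 1 or 3), MEIS3 (0.55) and HOXA3 (0.26), whose call was lost in those cases and with TMM scaling that left out chromosome 8 and distal 13q. MEIS1, the cofactor of HOXA9, had 177 ± 5.82 CPM across the controls against 169.9 ± 13.4 CPM across the edited libraries and was not called. The share of the HOXA, MEIS and PBX list called, 26.3%, was near the 28.7% over all genes tested.

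In the H3K36, Polycomb and DNA methylation lists no called gene moved by 2-fold. SPIN4, the reader of histone methylation that rose by 4.75, is on none of these lists. The share called was 34.2% in the H3K36 list, 30.0% in the Polycomb list and 31.6% in the DNA methylation list. Over all genes tested it was 28.7%. Of 38 writers, erasers and readers of H3K36 methylation 7 rose (3 to 5 with 1 library left out, moved over 1.5-fold without control replicate 1, 2 or 3 or edited replicate 1) and 6 fell, none by 2-fold (median 0.05). NSD3, a dimethyltransferase on chromosome 8, had 256, 274 and 268 CPM across the controls against 195, 186 and 192 CPM across the edited libraries (log2 fold change -0.48, SE 0.0628, adjusted p = 1.79e-06, edgeR). RIOX2, a JmjC-domain hydroxylase, fell by 0.42, and GLYR1, a reader on nucleosomes, rose by 0.28. Of 40 Polycomb genes 7 rose and 5 fell (2 to 6 with 1 library left out, moved over 1.5-fold without control replicate 1 or 2 or edited replicate 2), none by 2-fold, and of 19 DNA methylation genes 5 rose (3 to 5 with 1 library left out, moved over 1.5-fold without control replicate 1) and 1 fell (0 to 2 with 1 library left out, moved over 1.5-fold without control replicate 2 or 3 or edited replicate 1 or 2).

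The lists of imprinted and related genes and of MAGE and cancer-testis genes held some of the largest changes of the clone. Imprinted genes have 1 allele kept silent by DNA methylation. Many MAGE genes are silent outside the germ line, but MAGED1 is expressed outside it. Of 26 imprinted and related genes 4 rose and 7 fell, and RTL6, listed as a relative of the imprinted PEG10 and RTL1, rose most. PLAGL1, a zinc-finger factor, had 3.93, 3.49 and 5.05 CPM across the controls against 0.318, 0.368 and 0.222 CPM across the edited libraries (log2 fold change -3.77, SE 0.35, adjusted p = 1.90e-08, edgeR). GRB10, an adaptor of growth factor receptors, had 4.3, 6.7 and 8.26 CPM across the controls against 0.371, 0.368 and 0.72 CPM across the edited libraries (log2 fold change -3.71, SE 0.285, adjusted p = 2.19e-09, edgeR). H19, a non-coding RNA, fell from 1.17 ± 0.368 to 0.291 ± 0.0867 CPM (SD, n = 3). Of 7 MAGE and cancer-testis genes 1 rose, MAGED1, and 4 fell, TRO, PRAME (-3.31), MAGEH1 (-0.99) and NSMCE3 (-0.52).

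Ion channels and purine receptors fell more often than they rose, 14 against 6 (3 to 5 with 1 library left out, moved over 1.5-fold without control replicate 2 or edited replicate 3) of 39 (median -0.27). P2RX5 and P2RX7, ATP-gated channels, fell from 10.3 ± 1.49 to 3.0 ± 0.762 CPM and 4.17 ± 0.143 to 1.68 ± 0.242 CPM (SD, n = 3), and TRPM4, a calcium-activated channel, from 3.5 ± 0.196 to 0.863 ± 0.268 CPM. KCNA3, the potassium channel of lymphocytes, had 19.96, 19.5 and 18.3 CPM across the controls against 15.2, 13.7 and 11.3 CPM across the edited libraries. STIM2, a calcium sensor of the endoplasmic reticulum, rose from 205 ± 6.33 to 281 ± 6.08 CPM. HLA class II genes had 6 falls and 0 rises among 17 (median -0.14). HLA-DMB, which loads peptides, had 400.4, 388 and 395 CPM across the controls against 277, 258 and 304 CPM across the edited libraries (log2 fold change -0.49, SE 0.0994, adjusted p = 0.000806, edgeR). HLA-DMA, HLA-DOA and HLA-DQA1 fell (-0.40, -0.34 and -0.52). HLA alleles differ from the reference sequence, which can change how many of their reads are counted. Whether this differed between the groups was not tested.

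Of 74 cytosolic ribosomal protein genes 0 rose and 3 fell (0 to 2 with 1 library left out, moved over 1.5-fold without control replicate 1 or 2 or edited replicate 1, 2 or 3), namely RPL17 (-0.25), RPL22 (-0.22) and RPL14 (-0.21). The RPL17 call was lost without edited replicate 1, the RPL22 call without any library but control replicate 3 or with upper-quartile scaling, and the RPL14 call without any 1 library or with RLE or upper-quartile scaling. Of 72 nuclear genes of oxidative phosphorylation 1 rose and 5 fell (2 to 4 with 1 library left out, moved over 1.5-fold without control replicate 1 or 2 or edited replicate 2). NDUFA6, a subunit of complex I, was the riser, with 33.2, 37.2 and 34.6 CPM across the controls against 49.9, 52.6 and 45.8 CPM across the edited libraries. Of 34 proteasome genes 4 rose (0 to 2 with 1 library left out, moved over 1.5-fold whichever it was) and 2 fell, and of 43 genes of sterol and fatty acid synthesis 5 rose (3 to 5 with 1 library left out, moved over 1.5-fold without control replicate 3) and 7 fell. FDFT1 and SQLE, enzymes of sterol synthesis on chromosome 8, fell (-0.77 and -0.63). Shares called were 4.05% for the ribosomal, 8.33% for the oxidative phosphorylation and 17.6% for the proteasome list. The sterol and fatty acid list had 27.9%, near the 28.7% over all genes tested.

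The changes of the KOPN-8 clone were set against those of the 697 clone by a test of the difference. The lines have separate controls. The change differed at 2971 of 15218 genes (19.5%), and 1983 of the 3914 genes called in KOPN-8 outside chromosome 8 and distal 13q (50.7%) were among them. Outside those 2 blocks 1370 of the 14291 genes tested were called in 697, and 505 were called in both lines. That is 12.9% of the KOPN-8 calls, and 36.9% of the 697 calls beside 27.4% of all 14291 genes called in KOPN-8. Of the 505, 253 moved in the same direction and 252 in opposite directions. RAG1 was 1 of the latter, falling in KOPN-8 (-1.28) and rising in 697, with 261 and 546 CPM in its control and edited libraries (difference -2.34, SE 0.115, edgeR adjusted p = 2.06e-13). HOPX, CSPG4 and SKAP2 were near 0 in both 697 groups, with under 1 CPM, so that line could show no fall. MT1E fell in both lines, by 1.9 in KOPN-8 and from 10.4 to 0.0248 CPM in 697 (difference 6.31, edgeR adjusted p = 9.70e-09). MT1F also fell in both, by 2.44 and from 14.3 to 6.43 CPM (difference -1.31, edgeR adjusted p = 0.00022). MT1G stood at 60.9 and 49.3 CPM in 697 control and edited libraries (difference -4.999, edgeR adjusted p = 6.77e-10), and MT1X at 189 and 213 CPM (difference -1.44, edgeR adjusted p = 5.55e-08), and neither was called in 697.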

How the data were processed

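RNA was measured by stranded, poly-A-selected sequencing in 12 libraries, 3 in each of 4 groups. Trimmomatic, STAR, DESeq2 and hg19 are named in the submitters' processing notes. Versions, read counter, strand setting and annotation were not given in the sources used here. What the authors deposited as raw values are read counts, whole numbers for 59611 symbols, and 30589 of these had a count. A second table, which the authors normalized, was not used. KOPN-8 libraries differed by more than sampling noise within a group (chi-square per degree of freedom 2.86 to 6.86), so none was merged, and genes tested held at least 99.88% of the counts of each.

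A quasi-likelihood F test with robust estimates was run in edgeR 4.0.16 under R 4.3.3. The fit took all 12 libraries with TMM factors and 1 mean per group, so that the groups share an estimate of the spread, after filterByExpr by group. P-values of 15218 genes were adjusted by Benjamini-Hochberg. Standard errors come from the log2 fold change and F. A gene with no count in KOPN-8 enters medians at 0. GENCODE (GRCh38) gave chromosome, order, class and span for 14907 tested genes (97.96%). Its coordinates served only for order and span and are not printed, since the submitters name another build. The distal 13q part begins where medians on either side fitted the changes best (last gene before it TDRD3, first PCDH9). The fit was tested on simulated data. Alternatives were other scalings, filters, tools, thresholds, a replicate block and leaving out each library.

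The comparison, the 54 gene lists and the rules were chosen with earlier results of these data known. The rule named SETD2 and the 15 highest and 15 lowest called genes outside chromosome 8 and distal 13q with at least 5 CPM in a group and no overlap. Under those same limits it named the 10 largest rises and the 10 largest falls in CPM. It also named genes with at most 3 counts in 1 group and at least 1 CPM in the other, and members of described lists. The rest were runs of at least 3 neighbours with a log2 change of at least 1, and the 10 called genes whose difference between lines had the lowest p. Not every gene it named is described.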

Additional observations from a re-analysis of the deposited data

Results flagged for a closer look

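The change of the edited clone differed between KOPN-8 and 697 at 2971 genes by the test of the difference (edgeR quasi-likelihood, Benjamini-Hochberg adjusted p under 0.05). The 10 genes with the smallest p among those called in KOPN-8 outside chromosome 8 and distal 13q, and SETD2, are given as the KOPN-8 change minus the 697 change on the log2 scale.

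In 6 of them the KOPN-8 clone moved while 697 was not called. LDLRAD3 differed by -9.54, with 112 and 124 CPM in 697 control and edited libraries. MAGED1 differed by 6.52, with 279.8 and 265 CPM in 697, and SPIN4 by 4.59, with 36.8 and 41.1 CPM. F2R, a thrombin receptor, differed by -3.47, with 61.2 ± 2.12 CPM across the controls against 5.48 ± 0.813 CPM across the edited libraries in KOPN-8 and 118 and 117 CPM in 697. TFDP2 differed by 8.18, and COL27A1, a fibrillar collagen, by -4.12, with 19.8 ± 1.55 CPM across the controls against 1.08 ± 0.296 CPM across the edited libraries in KOPN-8 and 181 and 176 CPM in 697.

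In the others the 697 clone moved as well. SORL1, a sorting receptor, differed by -2.65, with 199 ± 11.9 CPM across the controls against 51.5 ± 2.97 CPM across the edited libraries in KOPN-8, where it fell, and 78.9 and 128 CPM in 697, where it rose. GK5 differed by 17.26, a fitted value that rests on groups at or near 0 and is no bound, since it was at 0 counts in the KOPN-8 controls and at 10.3 and 0.0491 CPM in 697. AGPS, an enzyme of ether lipid synthesis, differed by -6.64 and AASS, an enzyme of lysine breakdown, by 3.77, mostly through 697, where they stood at 0.567 and 48.6 CPM and 32 and 1.81 CPM, while their KOPN-8 changes were -0.26 and -0.39. SETD2 differed by -0.54, with 161 and 219 CPM in 697 control and edited libraries.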

How the results depend on the processing

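None of the 407 called genes that the rule named reversed under any alternative, and SETD2 was called in none. Of the 407, 359 kept their call in every alternative fit that tested them, and 48 lost it in at least 1. Of the 3914 calls outside chromosome 8 and distal 13q, between 2921 and 3125 were kept when 1 library was left out, 3691 by DESeq2 and 3839 by limma-voom, all in the same direction. All calls numbered 4370, and 3422 to 3756 with 1 library left out. Requiring a mean of at least 5 CPM left 115 rises and 360 falls of at least 2-fold. An adjusted p under 0.01 left 1025 rises over all genes, 2572 calls and 996 rises outside those parts, and 1902 genes whose change differed between the lines. The scalings moved the median of expressed genes by -0.01 to 0.02 on the log2 scale, and rises made up 40.2% to 48.4% of the calls outside those parts over scalings, filters and tools, against 43.6%.

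Same-numbered KOPN-8 libraries had correlations of 0.0845, 0.0725 and 0.12 between their deviations from the group means, not all over 0.1, so the numbers were not taken as pairs, though each library correlated best with its own number. With the replicate block 5348 genes were called, and 3900 of the 3914 calls were kept. Depths of 13208436 to 18278662 counts limit what can be said of genes under 1 CPM, and lists of fewer than 10 members turn on single genes.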

Other observations

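Death receptors and p53 targets held falls that the text has not described. TNFRSF10B, a TRAIL receptor, went from 213 ± 8.33 to 109 ± 2.4 CPM (SD, n = 3), TNFRSF10D, a decoy receptor, from 38 ± 3.93 to 14.8 ± 2.18 CPM and TNFRSF1B, a TNF receptor, from 38.8 ± 1.23 to 14.8 ± 1.22 CPM. TNFRSF10B and TNFRSF10D lie on chromosome 8, where 303 of 517 genes fell. SESN1, a sestrin induced by p53, fell from 86.6 ± 8.27 to 44.4 ± 3.64 CPM and ZMAT3 from 283 ± 25.8 to 168 ± 9.72 CPM, while MDM2, the p53 ligase and itself a target, rose from 364 ± 25.3 to 473 ± 18.3 CPM. CASP4, an inflammatory caspase, rose from 54.8 ± 3.08 to 95.7 ± 2.38 CPM.

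Stress, lysosome and oxygen genes moved singly. DERL3, which moves misfolded proteins out of the endoplasmic reticulum, fell from 131 ± 10.0 to 61.1 ± 15.9 CPM (SD, n = 3), and EIF2AK3, the PERK kinase, rose from 38 ± 0.907 to 56.1 ± 1.84 CPM. CTSB, cathepsin B, whose gene is on chromosome 8, fell from 121 ± 5.53 to 75.4 ± 6.98 CPM. The oxygen-sensing factors EPAS1 and HIF1A moved in opposite directions, EPAS1 from 12.2 ± 0.616 to 2.08 ± 0.0621 CPM and HIF1A from 152 ± 1.57 to 201 ± 9.49 CPM. Among immunoglobulin and T-cell receptor segments, chosen after their values were seen, IGHV3-72 fell from 49.4 ± 5.44 to 23.9 ± 2.86 CPM and TRAC from 87.7 ± 9.29 to 54.2 ± 5.29 CPM.

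The edited libraries were not alike in the genes that rose most. Of the 228 genes outside chromosome 8 and distal 13q that were called at least 2-fold higher with at least 1 CPM, edited replicate 1 was the lowest of the 3 edited libraries in 125 (54.8%), replicate 2 in 49 (21.5%) and replicate 3 in 54 (23.7%). Over all 12184 genes with at least 1 CPM, edited replicate 1 was the lowest in 3048 (25.0%). VPREB3, FCRL1, MS4A1, BLK, IGHA1, TLR1, TLR6, TLR7 and TLR10, chosen after their values were seen, were all lowest in edited replicate 1 and kept their calls without it. The part of this in other results was not tested.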
